A study of Rattus norvegicus with 6 samples.

Results

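The 9 genes described here code for parts of the NLRP3 inflammasome and of the NADPH oxidases, and they were compared in the dorsal root ganglia (DRG) of rats with chronic constriction injury (CCI) of the sciatic nerve and of sham rats. The inflammasome genes are Nlrp3, Pycard, Casp1 and Gsdmd, and the oxidase genes are Cybb, Cyba, Ncf1, Ncf4 and Nox4. They were taken by gene symbol from 43350 gene rows. Each symbol matched 1 protein-coding row, which carries no other symbol and overlaps 0 other rows. Of the 9 genes, 8 had a mean of at least 0.5 FPKM (fragments counted, scaled to transcript length and to sequencing depth) over the 6 samples and were tested together with the other rows above that level, 26663 in all. Nox4 lay below it.

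All animals were male Sprague-Dawley rats, acquired at 6 to 8 weeks of age by the methods, and were killed 11 days after surgery on the left side. In CCI rats the nerve was loosely ligated, and in sham rats, whose treatment the labels give as "none", the methods describe exposure without ligation. The lumbar 4 to 6 DRG of the operated side were taken after perfusion with saline from 3 CCI and 3 sham rats picked at random among animals that showed the behavior anticipated for their group. The methods state 1 rat per sample, although the library protocol in the labels speaks of pooled samples, so p-values measure the spread between rats if the methods hold. Total RNA was sequenced after removal of ribosomal RNA, and the libraries held 75423546 to 87615743 counts. At that depth 3 counts, taken as the detection limit, equal 0.0341 to 0.0394 CPM, which are counts relative to each library's total, a limit that covers counting error only.

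The samples carried the markers of their tissue. All 14 sensory neuron markers on a fixed list were above the filter, with Prph, the intermediate filament peripherin, the most abundant of them at a mean of 752 FPKM. Satellite glia and Schwann cells were also present, with 8 of 8 markers above the filter for each. The 9 genes stood far below the level of Prph, between 0.201 and 4.34 FPKM on average over the 6 samples.

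The inflammasome is a protein complex of innate immune cells. NLRP3 senses cell stress and recruits the adaptor ASC, the product of Pycard, which gathers and activates caspase-1. Caspase-1 then cleaves the precursors of interleukin-1 beta and interleukin-18 and also gasdermin D, whose fragment forms pores in the cell membrane. The phagocyte NADPH oxidase makes superoxide through a membrane pair of proteins encoded by Cybb and Cyba, switched on by cytosolic subunits that include the products of Ncf1 and Ncf4. Nox4 encodes a related catalytic protein that pairs with the Cyba product and needs no cytosolic subunits. In peripheral nerve and DRG, the inflammasome and the oxidases are studied as sources of inflammatory cytokines and of reactive oxygen species.

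At 11 days after injury, the transcripts of Cybb and Pycard were higher in CCI than in sham DRG, and for no gene of the 9 did a test find a lower level. Cybb was 1.58-fold higher (95% interval 1.37 to 1.83) and Pycard 1.61-fold (1.15 to 2.24). Both passed the limits used in the study (unadjusted p below 0.05, log2 fold change no smaller than 0.58 in either direction), which gives 2 of 8 tested genes higher and 0 lower. Among all 26663 rows, 2.57% were called higher and 1.26% lower by the same limits in edgeR's quasi-likelihood test. With 8 genes chosen with earlier results of these data known, this count is a description, and it was not tested against other groups of genes.

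At a Benjamini-Hochberg adjusted p under 0.05, edgeR called 0 of the 8 genes in either direction, against 0.0638% of all rows called higher and 0.0300% called lower. At an unadjusted p under 0.05 without a fold limit, edgeR found 3 of them, Cybb, Pycard and Ncf1, a limit that 10.7% of all tested rows passed. DESeq2 called 1 at an adjusted p under 0.05, Cybb, and limma on log2(FPKM + 0.1) called 0. In the same 3 genes every CCI library lay above every sham library in CPM, which 8.62% of all tested rows did. The median log2 fold change was 0.35 over the 8 tested genes, 6 of them positive and 2 negative, beside a median of 0.01 over all rows tested.

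**Figure D1:**
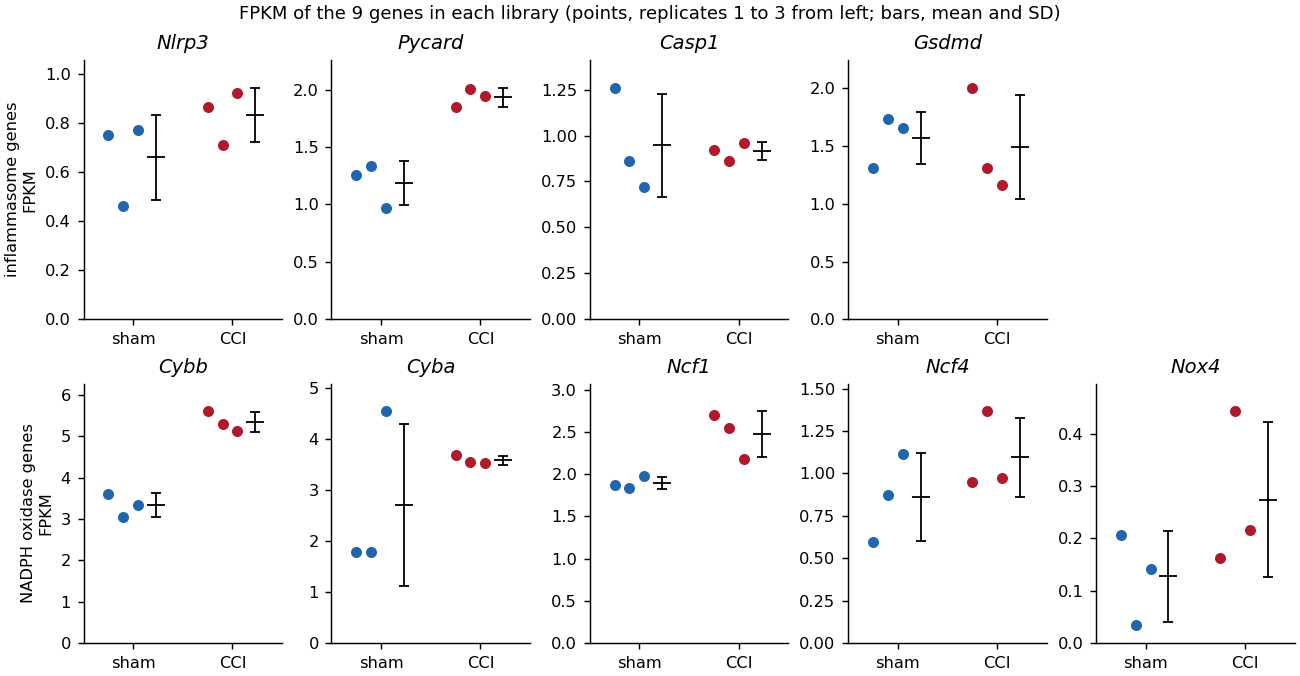
FPKM of each gene in each of the 6 libraries, sham in blue and CCI in red, with the inflammasome genes above, the oxidase genes below and the mean and SD of 3 rats drawn as bars. The CCI points of Pycard, Cybb and Ncf1 sit above all sham points, and sham 3 stands apart for Cyba at 4.54 FPKM.

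Ranked by FPKM in sham DRG, the genes ran from Cybb at 3.33 ± 0.286 (SD, n = 3) through Cyba at 2.70 ± 1.59, Ncf1 at 1.89 ± 0.0749, Gsdmd at 1.57 ± 0.227, Pycard at 1.19 ± 0.194, Casp1 at 0.946 ± 0.280, Ncf4 at 0.861 ± 0.259 and Nlrp3 at 0.662 ± 0.173 to Nox4 at 0.128 ± 0.0873. The libraries of neighbors in this order overlapped except for Ncf1 above Gsdmd and Nlrp3 above Nox4. In CCI DRG the order was Cybb at 5.34 ± 0.241 (SD, n = 3), Cyba at 3.59 ± 0.0895, Ncf1 at 2.47 ± 0.269, Pycard at 1.93 ± 0.0824, Gsdmd at 1.49 ± 0.449, Ncf4 at 1.10 ± 0.234, Casp1 at 0.915 ± 0.0490, Nlrp3 at 0.834 ± 0.111 and Nox4 at 0.274 ± 0.149. There each of the steps from Cybb down to Pycard, and the last step to Nox4, separated all libraries, and the steps between Pycard and Nlrp3 did not. The sensor Nlrp3 was thus the least abundant of the 4 inflammasome genes by mean FPKM in both groups.

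Among the inflammasome genes, the adaptor gene Pycard (row MSTRG.3439, chr1:199437832-199439210 on the minus strand of the authors' rat genome) was the one that passed the study limits. Its counts were 153, 164 and 150 in CCI 1 to 3 and 113, 109 and 83 in sham 1 to 3, or 1.84, 2.01 and 1.95 FPKM against 1.26, 1.34 and 0.970 FPKM. The CCI libraries lay close together, all above the highest sham library, and sham 3 was the lowest of the 6. Its log2 fold change was 0.68 ± 0.20 (SE), with an unadjusted p of 0.0127 and an adjusted p of 0.311 in edgeR. Leaving out sham 3 lowered it to 0.56, just under the fold limit, at an unadjusted p of 0.0399 in edgeR, so the call at the study limits rested on that library. With limma on log2(FPKM + 1) the log2 fold change of Pycard was 0.43, also under the fold limit.

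Nlrp3, the sensor (row ENSRNOG00000003170, chr10:45893018-45918254, plus strand), had 321, 261 and 319 counts in CCI and 300, 169 and 295 in sham. The groups overlapped, since CCI 2 lay below sham 1 and sham 3, and sham 2 was far below the rest. Its log2 fold change was 0.32 ± 0.24 (SE), with a 95% interval of -0.26 to 0.89 and an unadjusted p of 0.227 in edgeR. The interval spans both no difference and one beyond the fold limit, so the libraries do not settle whether Nlrp3 differed. Without sham 2 the log2 fold change was 0.12.

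Casp1, the protease (row ENSRNOG00000007372, chr8:2604962-2614631, plus strand), was at 0.923, 0.863 and 0.960 FPKM in CCI and 1.26, 0.860 and 0.718 FPKM in sham. The CCI values were nearly level, whereas sham 1 stood above all other libraries. Casp1 had a log2 fold change of -0.06 ± 0.25 (SE; unadjusted p of 0.816 in edgeR), which without sham 1 turned to 0.19 (unadjusted p of 0.431 in edgeR). Gsdmd, the pore-forming protein (row ENSRNOG00000007728, chr7:116889572-116894134, plus strand), had 348, 226 and 188 counts in CCI and 246, 298 and 298 in sham. Here CCI 1 was the highest and CCI 3 the lowest of the 6 libraries, so the sham range lay inside the CCI range. Gsdmd had a log2 fold change of -0.09 ± 0.25 (SE; unadjusted p of 0.739 in edgeR), moving to 0.06 without CCI 3 and to -0.36 without CCI 1.

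Among the oxidase genes, Cybb, the catalytic subunit of the phagocyte enzyme (row MSTRG.92, chrX:14578264-14612547, plus strand), was both the most abundant and the one with the narrowest interval. Its counts were 2133, 1995 and 1814 in CCI and 1487, 1144 and 1311 in sham, or 5.60, 5.30 and 5.12 FPKM against 3.61, 3.04 and 3.34 FPKM. Every CCI library was above every sham library, with little spread inside either group, 4.93% of the mean CPM in CCI and 7.99% in sham. The log2 fold change was 0.66 ± 0.09 (SE), with an unadjusted p of 0.000184 and an adjusted p of 0.0789 in edgeR. Over the alternatives run, the adjusted p of Cybb ranged from 1.18e-06 with DESeq2 to 0.248 in edgeR without sham 3, and it was also under 0.05 when protein-coding rows were tested alone, at 0.0431 in edgeR. With any 1 library left out, the log2 fold change stayed between 0.61 and 0.72 and the call at the study limits held. With limma on log2(FPKM + 1) the log2 fold change of Cybb was 0.55, under the fold limit, so the call was lost there.

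Cyba, the partner of the catalytic subunit (row MSTRG.14855, chr19:55249616-55257876, minus strand), had 253, 240 and 225 counts in CCI and 132, 121 and 321 in sham. The CCI libraries lay close together, at 3.53 to 3.69 FPKM, while sham 3 at 4.54 FPKM was the highest of all and the other sham libraries were both at 1.78 FPKM. The log2 fold change was 0.39 ± 0.39 (SE; unadjusted p of 0.360 in edgeR). Without sham 3 it was 0.99, with an unadjusted p of 0.00237 and an adjusted p of 0.303 in edgeR, so that 1 library decided whether Cyba passed the study limits. No reason for leaving that library out is given by the labels.

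Of the cytosolic subunits, Ncf1, the organizer that brings the others to the membrane (row MSTRG.8072, chr12:25497104-25506300, plus strand), had 692, 648 and 520 counts in CCI and 518, 465 and 524 in sham. In FPKM this was 2.70, 2.55 and 2.17 against 1.87, 1.84 and 1.98, with the groups apart by a narrow margin between CCI 3 and sham 3. The log2 fold change of 0.37 ± 0.13 (SE; unadjusted p of 0.0258, adjusted p of 0.380 in edgeR) was under the fold limit, and the unadjusted p exceeded 0.05 in 4 of the 6 fits that left out a library, reaching 0.0762, and with a replicate block, at 0.0676. Ncf4, a further cytosolic subunit (row ENSRNOG00000006940, chr7:119482272-119499425, plus strand), had 127, 180 and 121 counts in CCI and 86, 116 and 153 in sham. Its groups overlapped, with sham 3 above CCI 1 and CCI 3, and the log2 fold change was 0.33 ± 0.30 (SE; unadjusted p of 0.310 in edgeR), between 0.12 and 0.56 with a library left out.

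Nox4 (row ENSRNOG00000013925, chr1:150797084-150976194, plus strand) had the lowest counts and the widest spread, with 55, 147 and 68 counts in CCI and 75, 12 and 49 in sham. CCI 2 was the highest and sham 2 the lowest library, and the others overlapped. In edgeR without the filter its log2 fold change was 1.08 ± 0.66 (SE), with a 95% interval of -0.47 to 2.64 and an unadjusted p of 0.143. The interval is too wide to tell whether Nox4 differed.

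**Figure D2:**
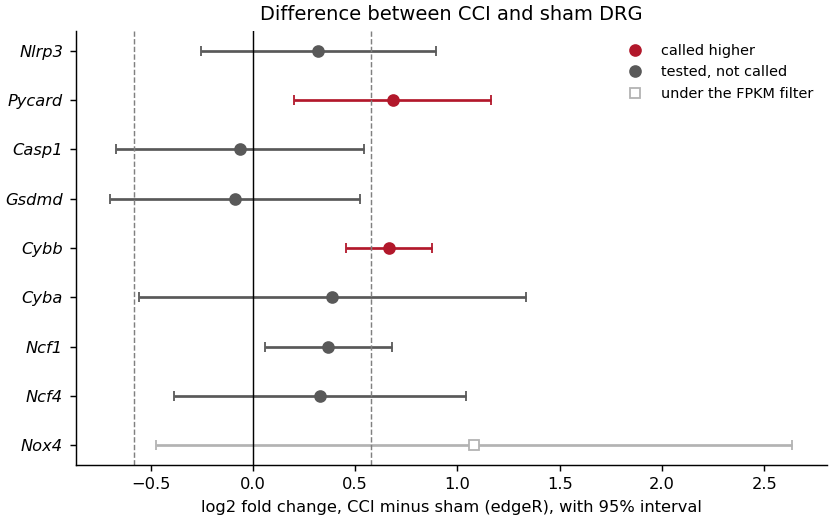
Log2 fold change between CCI and sham DRG for each gene, with its 95% interval from edgeR, and dashed lines at the fold limit of 0.58 in either direction. Pycard and Cybb, in red, passed the study limits, Ncf1 was above 0 but under the limit, and Nox4, drawn as an open square, comes from the fit without the filter.

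RefSeq promoter windows of the GRCr8 assembly, 250 bases before to 50 bases after the start site, were at hand for 7 of the 9 genes, all but Gsdmd and Ncf4. Coordinates of this assembly differ from those of the authors' genome, and so does the strand of Cybb, together with that of its neighbors Rpgr, Srpx, Sytl5, Xk and Lancl3. The windows of the 3 genes whose groups were apart are shown 5′ to 3′ on the strand of the gene. Capitals mark a match to GAGGAA, the core of the motif bound by PU.1, an ETS factor of myeloid cells, on either strand.
Cybb (chrX:16065016-16065315, minus strand): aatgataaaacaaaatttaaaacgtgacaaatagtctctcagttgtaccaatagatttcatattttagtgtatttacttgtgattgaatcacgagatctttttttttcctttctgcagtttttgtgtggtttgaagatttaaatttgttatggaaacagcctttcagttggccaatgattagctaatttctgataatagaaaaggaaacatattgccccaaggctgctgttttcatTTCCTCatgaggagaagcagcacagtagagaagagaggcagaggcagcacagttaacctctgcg
Pycard (chr1:192033370-192033669, minus strand): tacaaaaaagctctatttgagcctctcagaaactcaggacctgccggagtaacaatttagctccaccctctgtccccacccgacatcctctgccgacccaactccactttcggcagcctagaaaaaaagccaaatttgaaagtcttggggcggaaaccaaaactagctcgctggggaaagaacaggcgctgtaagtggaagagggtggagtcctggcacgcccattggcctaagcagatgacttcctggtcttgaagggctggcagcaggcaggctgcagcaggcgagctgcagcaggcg
Ncf1 (chr12:28121635-28121934, plus strand): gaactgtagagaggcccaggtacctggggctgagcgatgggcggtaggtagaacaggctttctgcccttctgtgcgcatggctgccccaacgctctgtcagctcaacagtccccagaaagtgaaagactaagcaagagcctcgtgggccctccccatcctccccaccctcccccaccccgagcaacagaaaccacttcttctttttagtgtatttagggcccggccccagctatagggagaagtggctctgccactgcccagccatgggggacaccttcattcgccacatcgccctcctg

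GAGGAA occurred on either strand in 3 of the 7 windows, Cybb, Nlrp3 and Casp1, and in 27.6% of all 33469 promoter windows of that length. In Cybb the match, read as TTCCTC on the printed strand, lay 14 to 9 bases before the start. The AP-1 motif TGANTCA was found in 1 of the 7 windows, Cybb, and in 7.33% of all windows. A loose form of the NF-kB motif, 3 G and 2 C around 5 free bases, was found on either strand in 3 of the 7, Casp1, Ncf1 and Cyba, and in 47.3% of all. These matches describe letters in a window and do not show binding. The genes with a GAGGAA match included Casp1, which did not pass the test, and Pycard, which did, had none.

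The pattern over the 6 libraries was then compared between genes by the root mean square difference of log2 CPM, each gene centered on its own mean. Among the 8 tested genes, the nearest pairs were Cybb and Ncf1, which differed by 0.18, and Cybb and Pycard, which also differed by 0.18, whereas Casp1 and Cyba differed most, by 0.70. Among 13010 other protein-coding genes, the nearest to Cybb were S100a11, Tp53i11 and Cdk15, at 0.04, 0.04 and 0.08, where the median gene differed by 0.38. Nearest to Pycard were Gpr183, Lcp2 and Nnat, at 0.06 to 0.09. For Ncf1 they were Rras2, Htr2b and Coq8b, at 0.03 to 0.04.

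The other genes had neighbors of their own. Nlrp3 was most like LOC688286, Mx2 and Herc6, at 0.08 to 0.10. For Casp1 the nearest were Angptl7, Gask1a and Vangl2, for Gsdmd they were Frrs1l, Otud5 and Khdrbs2, and for Cyba they were Zfp580, Sema5a and Ptgdrl. Ncf4 was nearest to AABR07059140, RGD1559482 and Fam241a. With 6 libraries such likeness is a description of these samples.

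The wider pathway was followed through 6 further lists with 96 genes in all, of which 90 were analyzed and 65 were above the filter. Of these 65, edgeR called 6 higher and 0 lower at the study limits, beside 2.57% and 1.26% of all tested rows, and 0 at an adjusted p under 0.05, while 15 had an unadjusted p under 0.05, beside 10.7% of all tested rows. Other inflammasome sensors gave 0 calls among 6 tested genes, with a median log2 fold change of 0.09. Nlrp1a had a log2 fold change of 0.22 and Mefv, which encodes pyrin, 0.54 (unadjusted p of 0.141 in edgeR). Mefv passed the limits in edgeR without sham 1 (0.87, unadjusted p of 0.0271) and with a replicate block (0.59, unadjusted p of 0.0364). The block pairs libraries of different rats by replicate number, which no label ties to a batch. Pairs with the same number had correlations of -0.0106, -0.0218 and -0.0547. Nlrc4, a sensor of bacterial proteins, was under the filter, and in edgeR without the filter its log2 fold change was 1.16 (unadjusted p of 0.00406, adjusted p of 0.260). Its FPKM was 0.682, 0.542 and 0.628 in CCI against 0.300, 0.182 and 0.332 in sham, with the groups apart.

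Of 13 tested regulators of the inflammasome, 1 was called higher and 0 lower, beside 2.57% and 1.26% of all tested rows. The median log2 fold change of these regulators was 0.16. The called gene was Panx1, which encodes a membrane channel that releases ATP, with 7.66, 5.59 and 5.42 FPKM in CCI and 3.58, 3.47 and 4.06 FPKM in sham. All CCI values of Panx1 were above all sham values. Its log2 fold change was 0.73 (unadjusted p of 0.00280, adjusted p of 0.189 in edgeR) and 0.55 without CCI 1, which is under the fold limit. Nek7, a kinase that binds NLRP3, was at 38.1 ± 2.22 FPKM in CCI and 36.5 ± 1.69 in sham (SD, n = 3), with a log2 fold change of 0.04. The ATP receptor gene P2rx7 had a log2 fold change of -0.13 and Tlr4 one of 0.19, neither past the limits.

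Of 8 tested inflammatory caspases and executors of lytic cell death, 1 was called higher, beside 2.57% of all tested rows. This was Ripk3, a kinase of necroptosis, with a log2 fold change of 1.04 (unadjusted p of 0.0223, adjusted p of 0.363 in edgeR). Its FPKM was 1.20, 0.787 and 0.958 in CCI and 0.566, 0.267 and 0.582 in sham, without overlap, and the call was lost without CCI 1 by its p alone (0.0722 unadjusted in edgeR), since the log2 fold change was 0.76 or more with any library left out. Ripk3 had a mean of 0.471 FPKM in sham, under the filter level, and 0.982 in CCI. The list had 0 calls without CCI 1 and 2 without CCI 3, sham 1 or sham 2, and 0 where a mean of at least 1 FPKM was asked for or with limma on log2(FPKM + 1). Casp4, an inflammatory caspase of the same family as Casp1, had a log2 fold change of 0.17 and did not pass the test.

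Of 6 tested genes of the interleukin-1 and interleukin-18 axis, 1 was called higher, beside 2.57% of all tested rows, and their median log2 fold change was 0.22. The called gene was Il1r1, the receptor of interleukin-1, with 7.27, 6.33 and 2.79 FPKM in CCI and 2.62, 1.80 and 2.23 FPKM in sham. CCI 3 lay only slightly above sham 1, and CCI 1 and CCI 2 were far above it. The log2 fold change was 1.29 (unadjusted p of 0.00949, adjusted p of 0.277 in edgeR) and between 1.02 and 1.60 with a library left out, with the call held in all 6 of those fits. Of the cytokine genes, Il1b was at 0.495 ± 0.229 FPKM in CCI and 0.524 ± 0.104 in sham (SD, n = 3), and Il18 at 0.726 ± 0.122 and 0.568 ± 0.111. Il1b had a log2 fold change of -0.10 and Il18 one of 0.34, and neither passed the test. Il33, the most abundant gene of the list, was at 17.1, 15.5 and 16.6 FPKM in CCI and 13.2, 6.01 and 13.0 FPKM in sham, without overlap, and its log2 fold change of 0.60 did not pass the test (unadjusted p of 0.0767 in edgeR). It passed the study limits with DESeq2 (unadjusted p of 0.0178) and in edgeR with a replicate block (0.68, unadjusted p of 0.0379), and was 0.31 without sham 2.

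Of 10 other tested oxidase subunits and regulators, 3 were called higher, beside 2.57% of all tested rows, and the median log2 fold change was 0.08. Prkcb, a protein kinase C that can phosphorylate the Ncf1 product, had 8.12, 19.5 and 9.71 FPKM in CCI and 5.48, 6.18 and 6.07 FPKM in sham. All CCI values were above all sham values, with CCI 2 far above the rest. Prkcb had a log2 fold change of 1.06 (unadjusted p of 0.0145 in edgeR), and without CCI 2 it was 0.576, just under the fold limit, so the call was lost. Vav1, an activator of Rac proteins, had a log2 fold change of 0.69 (unadjusted p of 0.0220 in edgeR), and Duox2, an oxidase that makes hydrogen peroxide, one of 1.02 (unadjusted p of 0.0255 in edgeR) with overlapping groups. Each of these last calls held in 3 of the 6 fits with a library left out. Duox2 had a mean of 0.365 FPKM in sham, under the filter level, and 0.751 in CCI, and the list had 1 call where a mean of at least 1 FPKM was asked for and 1 with limma on log2(FPKM + 1). Rac2, the Rac protein of blood cells, had a log2 fold change of 0.34 and Cybc1, a chaperone of the Cybb and Cyba products, one of -0.05, without a call.

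None of 22 tested antioxidant and redox genes was called at the study limits in edgeR, though 7 had an unadjusted p under 0.05 (10.7% of all tested rows did), and their median log2 fold change was 0.01. Sod2, the mitochondrial superoxide dismutase, had a log2 fold change of 0.36 (unadjusted p of 0.00720 in edgeR), with 100, 85.5 and 80.4 FPKM in CCI against 66.9, 71.6 and 66.8 in sham. Hmox1, heme oxygenase, was on the other side at -0.33 (unadjusted p of 0.0185 in edgeR), with 4.04, 4.16 and 4.46 FPKM in CCI against 5.33, 5.46 and 4.92 in sham. In both genes the groups were apart.

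**Figure D3:**
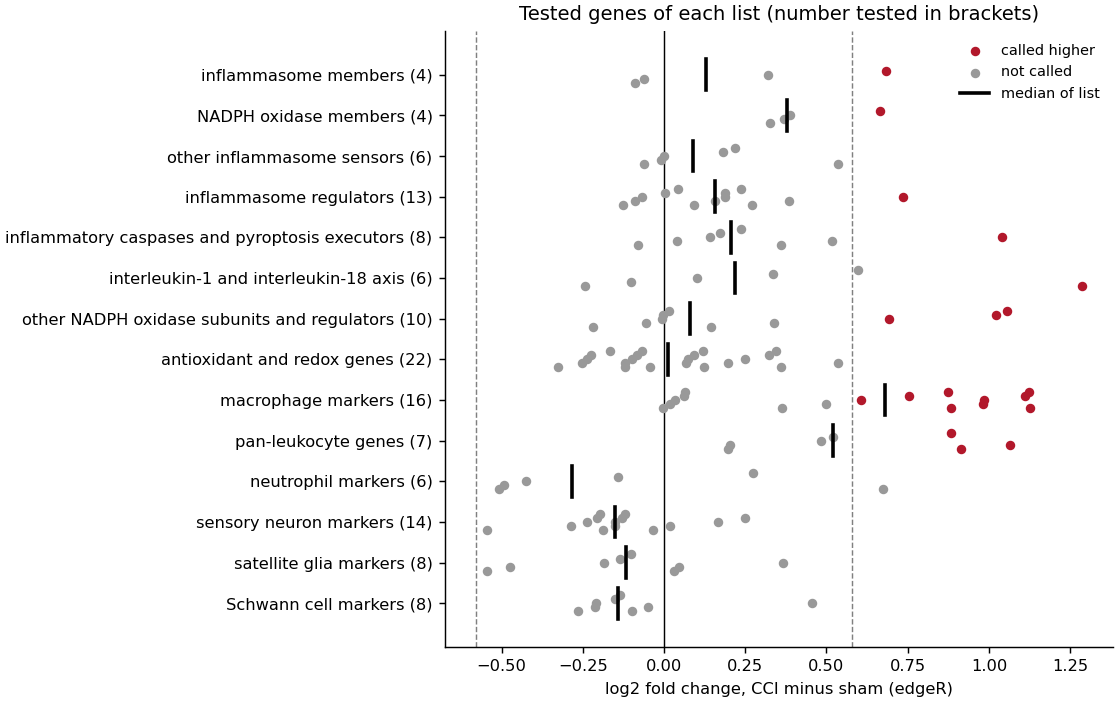
Log2 fold change between CCI and sham DRG of every tested gene of 14 lists, with the list's median as a black bar, called genes in red and dashed lines at the fold limit of 0.58. Of 16 macrophage markers 9 were called higher, beside 2.57% of all tested rows, with a median of 0.68, while the medians of the oxidase regulators and the antioxidant genes were 0.08 and 0.01.

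Macrophage markers were higher in the same CCI libraries. Of 18 markers on the list, 17 were analyzed and 16 tested, and edgeR called 9 higher and 0 lower at the study limits, 8 of which kept the call with any 1 library left out. Of all tested rows, 2.57% were called higher and 1.26% lower by these limits. At an adjusted p under 0.05 edgeR called 0 of the markers. The median log2 fold change of the 16 tested markers was 0.68. The summed level of the analyzed markers was 335, 241 and 243 FPKM in CCI 1 to 3 and 149, 133 and 146 FPKM in sham 1 to 3, so that all CCI libraries were above all sham libraries, by 1.92-fold on average. Lyz2, which encodes lysozyme, was the most abundant marker at 147 FPKM and made up 65.4% to 73.9% of the sum, and no marker of the list was at or under 3 counts in all libraries. Without Lyz2, an alternative chosen after seeing the data, the sum was 1.75-fold higher in CCI.

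The markers did not move as a block. Cx3cr1, the fractalkine receptor, had a log2 fold change of 1.11, Csf1r, the receptor of macrophage colony-stimulating factor, one of 0.75, and C1qc, a chain of complement C1q, one of 0.98, and all were called. Adgre1, Cd163, Cd14, Trem2 and Siglec1 lay between -0.00 and 0.07 and were not called. Of 7 tested pan-leukocyte genes 3 were called higher, beside 2.57% of all tested rows, and edgeR called 0 at an adjusted p under 0.05. The called genes were Itgb2, Lcp1 and Spi1, the last of which encodes PU.1, with 1.45, 1.20 and 1.33 FPKM in CCI against 0.754, 0.759 and 0.622 in sham. Itgb2 kept its call in 3 of 6 fits and lost it without CCI 1, CCI 2 or sham 2. The summed level of the pan-leukocyte list was 115, 93.5 and 83.1 FPKM in CCI and 62.9, 57.2 and 63.1 FPKM in sham, with Lcp1 the most abundant gene at 45.6 FPKM and none at or under 3 counts.

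In a bulk sample such as DRG tissue, more cells of a type and more RNA per cell cannot be told apart. The part of macrophage number in the values of Cybb, Pycard and the other genes was not tested. As a description, the FPKM of each gene was divided by the summed FPKM of the macrophage markers in the same library. Since the sum was higher in every CCI library, a gene at the same FPKM in both groups has a ratio of 0.527, and 74.2% of all tested rows were lower in every CCI library on this scale. Relative to that sum, Cybb was at 1.67%, 2.20% and 2.10% in CCI and at 2.43%, 2.29% and 2.29% in sham, lower in every CCI library, by a ratio of 0.846. Pycard overlapped between the groups, at 0.550%, 0.834% and 0.800% in CCI and 0.846%, 1.01% and 0.667% in sham.

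Ncf1, Casp1 and Gsdmd had ratios of 0.686, 0.524 and 0.491, of which the last 2 are near the value of a gene at the same FPKM in both groups. These ratios are given without a test, and an exact permutation test of 3 against 3 cannot go below p = 0.1. Relative to the pan-leukocyte sum, the ratio was 1.02 for Cybb and 1.04 for Pycard, with overlap. Relative to the mean log2 level of the markers, which gives Lyz2 no extra weight, it was 1.05 for Cybb and 1.07 for Pycard, again with overlap. A gene at the same FPKM in both groups has a ratio of 0.634 against the pan-leukocyte sum and 0.655 against the mean log2 level.

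**Figure D4:**
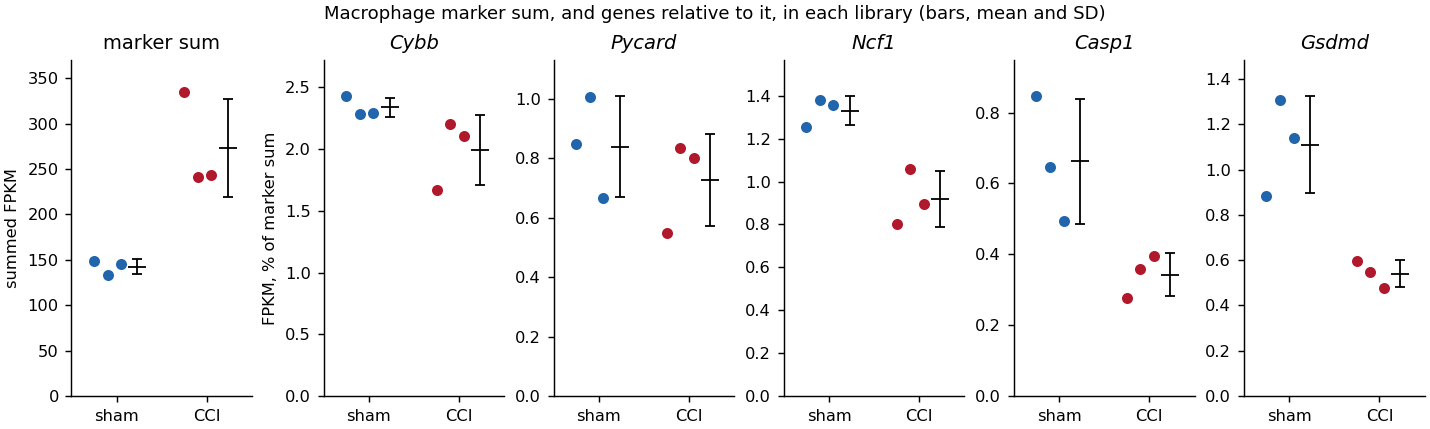
Summed FPKM of the macrophage markers in each library at the left, sham in blue, CCI in red, with the mean and SD of 3 rats as bars. At the right is the FPKM of Cybb, Pycard, Ncf1, Casp1 and Gsdmd as a percentage of that sum, with the other members not drawn. The sum lies between 241 and 335 FPKM in CCI and between 133 and 149 FPKM in sham, so a gene at the same FPKM in both groups, as Casp1 and Gsdmd nearly are by mean, lies lower in CCI on the percentage scale.

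Other cells that carry these genes were looked at in the same way. Neutrophil markers gave 0 calls among 6 tested genes in edgeR, with 0 at an unadjusted p under 0.05, and their summed level was 18.5, 13.5 and 11.6 FPKM in CCI and 31.4, 11.5 and 8.20 FPKM in sham, highest in sham 1. Without sham 1, edgeR called 2 of the neutrophil markers higher. The most abundant neutrophil gene was S100a8 at 6.66 FPKM, Mpo was under the filter, and Ltf was at or under 3 counts in all libraries. T cell markers were low, with 0 of 10 above the filter and sums of 0.589 to 1.10 FPKM, led by Lck at 0.403 FPKM. In edgeR without the filter 1 passed the study limits, Cd8a, with 1, 4 and 19 counts in CCI and 0 in each sham library (unadjusted p of 0.0320, adjusted p of 0.494). Since CCI 1 was under the limit of 3 counts and every sham library was at 0, no difference is read from Cd8a. Of 7 B cell markers 1 was tested and not called, with sums of 1.15 to 1.87 FPKM led by Jchain. Cd79a, under the filter, had 0.308, 0.276 and 0.306 FPKM in CCI and 0.612, 0.621 and 0.369 FPKM in sham, without overlap. Its log2 fold change was -0.86 (unadjusted p of 0.0563 in edgeR without the filter). Mast cell markers gave 0 calls among 3 tested genes, with sums of 13.8 to 19.4 FPKM led by Kit. Hdc, under the filter, had 0.647, 0.548 and 0.607 FPKM in CCI and 0.0661, 0.338 and 0.263 FPKM in sham, with a log2 fold change of 1.39 (unadjusted p of 0.0355 in edgeR without the filter). Dendritic cell markers gave 1 call among 4, higher in CCI, beside 2.57% of all tested rows. This was Itgax, which macrophages also express, at a log2 fold change of 0.82. Its call held in 3 of 6 fits that left out a library. Its mean was 0.402 FPKM in sham, under the filter level, and 0.723 in CCI. The other 3 were negative, among them Flt3, whose CCI libraries were all below the sham libraries at a log2 fold change of -0.35 (unadjusted p of 0.0156 in edgeR). The sums of the dendritic list were 7.70 to 10.2 FPKM, led by Flt3.

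Markers of resident cells gave 0 calls at the study limits in edgeR, for 14 tested sensory neuron genes, 8 of satellite glia, 8 of Schwann cells, 6 of endothelium and 7 of fibroblasts. At an unadjusted p under 0.05 edgeR found 5 of the neuron genes, 1 of the satellite glia genes, 1 of the Schwann cell genes and 0 of the endothelial and fibroblast genes, where 10.7% of all tested rows passed. Cldn5, a defining endothelial gene, was at or under 3 counts in all libraries. The median log2 fold change was -0.15 for neurons, -0.12 for satellite glia, -0.14 for Schwann cells, -0.04 for endothelium and -0.01 for fibroblasts. It was negative for 11 and positive for 3 neuron genes, while 51.1% of all tested rows were positive. In 5 neuron genes every CCI library lay below every sham library, and in 1 above, beside 8.62% of all tested rows above. The share of all rows below was not computed. The neuron sum was 2573, 2772 and 2352 FPKM in CCI and 3057, 2828 and 2634 FPKM in sham, with overlap between the groups.

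Skeletal muscle markers were highest in sham 1. Their sum was 8.68, 5.55 and 4.36 FPKM in CCI and 136, 5.38 and 19.2 FPKM in sham, with Acta1 the most abundant gene at 13.2 FPKM, and 6 of 8 tested markers were called lower in CCI by edgeR, beside 1.26% of all tested rows. Without sham 1 the calls of Acta1, Ckm, Mylpf, Mb and Actn3 were lost, and 1 of the 6 calls held in every fit that left out a library. Acta1 had a log2 fold change of -2.78, which ranged from -3.31 to -0.80 with a library left out, and its call held in 2 of those 6 fits, not in the fit without sham 1. Tnni2, with 0 counts in each CCI library and 758, 5 and 96 in sham, kept its call in all 6 fits. It was above the filter through the sham libraries alone, and against 0 counts the size of its change is not measured. Sham 1 was also the library with the highest neutrophil and erythrocyte sums, the latter at 568 FPKM against 161 to 335 FPKM in the others, led by Hba-a1. By CPM, sham 1 was the highest sham library for Cybb, Casp1 and Nox4 and the lowest for Gsdmd, Cyba and Ncf4. Without it the log2 fold change was 0.72 for Cybb and 0.19 for Casp1. For Gsdmd it was then -0.21, for Cyba 0.16 and for Ncf4 0.12. The part of these markers in the values of the 9 genes was not tested.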

How the data were processed

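RNA-seq of DRG from 3 CCI and 3 sham rats was taken from the deposited table of genes, in which the authors give a read count and an FPKM for each gene row and sample. According to the submitters' notes, reads were aligned with HISAT2 2.0 and transcripts assembled with StringTie 1.3.0 on the authors' rat genome, and the strand of counting is not stated. All 6 samples were used and 0 sample columns were left over. Members and gene lists were chosen with earlier results of these data known. A gene was analyzed where its symbol equaled a symbol of a row. Protein-coding rows were taken first, then rows with a single symbol, and then the row with the largest sum of counts. The named genes are the 9 members, the called genes of the lists and genes of the pathways' main steps. Some of them were chosen after their values were seen. Genes of the lists whose symbol had no row were not analyzed here. Rows without a symbol held 5.37% to 5.72% of counts per library.

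Counts of rows with a mean of at least 0.5 FPKM (26663 of 43350) were scaled by TMM and compared by the quasi-likelihood test of edgeR 4.0.16 in R 4.3.3, CCI minus sham. As in the study, calls needed an unadjusted p below 0.05 together with a log2 fold change no smaller than 0.58 in either direction, and calls at a Benjamini-Hochberg adjusted p under 0.05 are given separately. FPKM served for levels and for ratios to marker sums. Total counts of 75423546 to 87615743 per library, scaled by TMM, put the limit of 3 counts at 0.0341 to 0.0394 CPM, for counting error only. Alternatives were RLE scaling, DESeq2 1.42.0, limma 3.58.1 on log2(FPKM + 0.1) and on log2(FPKM + 1), a mean of at least 1 FPKM, no filter, protein-coding rows alone, a replicate block, leaving out each library in turn, and other reference sums. The sum without Lyz2 was chosen after seeing the data. Figures and summaries were made with Python 3.11.15, pandas 2.3.3 and matplotlib 3.10.9, and the code was tested on simulated data.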

Additional observations from a re-analysis of the deposited data

How the results depend on the processing

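In edgeR, 686 genes were higher and 336 lower at the study limits among all tested. Limma on log2(FPKM + 1) gave 410 and 161, where the larger pseudocount shrinks low values. Protein-coding genes alone, of which 13712 were tested, gave 353 and 115. With log2(FPKM + 1), Cybb was at 0.55 and Pycard at 0.43, both under the fold limit, so 0 of the 9 genes were called by limma there, although both had an unadjusted p under 0.05. At an adjusted p under 0.05, 17 genes were higher and 8 lower in edgeR, against 427 and 320 with DESeq2, 41 and 35 for protein-coding genes alone, and 0 and 0 with a replicate block. Limma on log2(FPKM + 0.1) gave 5 lower, and leaving out a library gave 3 to 40 higher and 3 to 21 lower. The cause was not tested. Of the 9 genes, DESeq2 and protein-coding genes alone each placed 1, Cybb, at an adjusted p under 0.05. The replicate block left Cybb at an adjusted p of 0.237 in edgeR. With 1 library fewer, the log2 fold change ranged from 0.56 to 0.78 for Pycard, from 0.16 to 0.99 for Cyba, from -0.22 to 0.19 for Casp1 and from -0.36 to 0.06 for Gsdmd, the last 2 changing sign. The highest value of Gsdmd, 0.0650 without CCI 3, and that of Casp1, without sham 1, were not past any limit. Relative to the macrophage sum, the log2 ratio of Cybb moved from -0.24 to 0.0253 with the pan-leukocyte sum and to 0.0717 with the mean log2 level of the markers, and that of Ncf1 from -0.54 to -0.28 and -0.23. The cause was not tested. For Nox4, at 12 to 147 counts, the SD between libraries was 53.8% of the mean CPM in CCI and 66.7% in sham, and depth was not tested as a limit.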

Other observations

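Of genes under the filter, 3 receptor genes of the interleukin-1 and interleukin-18 axis had groups that did not overlap. Il1a, Il1rn and Il1r2 of the same list, also under the filter, overlapped, and Il36g had 0 counts in every library. Among tested rows, 8.62% had every CCI library above every sham library in CPM, and the share of rows under the filter was not computed. Il18rap was at 0.461, 0.231 and 0.225 FPKM in CCI and 0.0501, 0.0310 and 0.0992 FPKM in sham, with a log2 fold change of 2.30 (unadjusted p of 0.00308 in edgeR without the filter). Il1rl1 was at 0.508, 0.778 and 0.468 FPKM in CCI and 0.222, 0.280 and 0.255 FPKM in sham, with a log2 fold change of 1.19 (unadjusted p of 0.00315 in edgeR without the filter). Il18r1 was at 0.0975, 0.185 and 0.0885 FPKM in CCI and 0.0734, 0.0414 and 0.0434 FPKM in sham, with a log2 fold change of 1.21 (unadjusted p of 0.0417 in edgeR without the filter). All 3 were chosen after their values were seen. In edgeR without the filter the adjusted p was 0.239 for Il18rap, 0.239 for Il1rl1 and 0.540 for Il18r1.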
